A study of Mus musculus with 6 samples.

Results

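The genes described here are 10 imprinted regulators of growth, *Igf2*, *H19*, *Dlk1*, *Meg3*, *Peg3*, *Grb10*, *Phlda2*, *Ascl2*, *Slc22a18* and *Plagl1*, measured in the dorsal midbrain of mouse embryos with and without *Ezh2*. Every probe set that the platform's annotation assigns to 1 of these symbols alone was taken, whatever its level or difference. This gave 32 of the 45037 probe sets tested, for 9 of the 10 genes. The annotation names *H19* and the miRNA gene that *H19* hosts for the same probe set, so *H19* was not analysed here. None of the 32 probe sets passed the test at an adjusted p under 0.05, and the largest difference, that of *Phlda2*, was 0.44 on the log2 scale.

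Imprinted genes are transcribed mainly from the allele inherited from 1 parent. DNA methylation laid down in the germ line at control regions marks the parental alleles, and in some clusters, best known from the mouse placenta, Polycomb marks on histones take part in silencing an allele. Ezh2 is the enzyme of Polycomb repressive complex PRC2 that methylates lysine 27 of histone H3. Many imprinted genes set how large the embryo and placenta grow, often with growth promoters expressed from the paternal allele and growth inhibitors from the maternal allele. Arrays of this kind measure the sum of both alleles, so no value below is allele-specific.

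RNA came from dorsal midbrain at E10.5 in C57BL/6 mice, with 1 array for each of 6 samples. The arrays are of the Affymetrix platform that the study's methods call A430. In the 3 *Ezh2* cko samples, Wnt1-Cre deletes the SET domain, the catalytic part of Ezh2, from both floxed alleles. The 3 control samples are labelled WT. In the study's methods, however, controls were littermates that lacked Cre and carried both floxed alleles, or that carried Cre with 1 floxed and 1 wild-type allele, and the labels do not tell these apart. Each group came from 2 litters, which the labels do not assign to samples. Wnt1-Cre is also active in the neural crest. By staining, the study found Ezh2 protein lost in the midbrain from E10.5 onwards. At a later stage than that of the arrays it found only partial loss in the rostral dorsal midbrain. The *Ezh2* cko tissue can therefore hold cells that kept Ezh2.

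The midbrain genes *En1*, *En2* and *Otx2* gave signals in both groups. *En1* lay between 8.38 and 8.77 in *Ezh2* cko arrays and between 7.98 and 8.29 in control arrays. The probe set of *Ezh2* read 11.79, 11.74 and 11.72 in *Ezh2* cko arrays, against 11.69, 11.76 and 11.66 in control arrays. It could not be placed relative to the deleted part and does not check the deletion. All values are log2 signals, a scale with no level that marks an absent transcript, and each probe set was compared only with itself across arrays. In such bulk tissue, fewer cells of a type and less RNA per cell cannot be told apart.

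Over all probe sets, 85 of 45037 passed limma at an adjusted p under 0.05, which is 0.189%. Of these, 83 were higher in *Ezh2* cko midbrain (0.184%) and 2 lower (0.00444%). Among the 32 probe sets of the imprinted growth regulators the count was 0. At an unadjusted p under 0.05 limma counted 3 of the 32, or 9.38%, beside 7.55% of all probe sets, and the unpaired test of the methods counted 1 of 32 beside 6.72%. At the fold change and unadjusted p that the study set as thresholds, 0 of the 32 probe sets passed, beside 0.26% of all. Where so few of all probe sets pass, 0 is the likely count for 32, so the counts of 0 do not compare the shares. At an unadjusted p under 0.05 the members' share was above that of all with limma and below it with the unpaired test. Of the 32 probe sets, 11 belong to *Meg3* and are not independent.

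The differences of most members were small. Of the 32 log2 differences, *Ezh2* cko minus control, 19 were above 0 and 13 below 0. The 19 made up 59.4%, beside 43.1% of all probe sets, but 8 of the 19 were sets of *Meg3*. With 1 probe set per gene, 4 of the 9 genes were above 0 and 5 below, beside 7832 of 18193 genes above 0. A difference over 0.3 in size was found for 3 of the 32, or 9.38%, beside 4.42% of all, and 22 differences were under 0.1. The median size was 0.055, beside 0.077 for all probe sets. For 24 of the 32 the difference was smaller than its own standard error. The 95% intervals of 29 probe sets included 0, and 30 intervals lay wholly within the study's fold-change threshold in either direction. The lowest bound over all members, for *Dlk1*, was 0.588-fold, and the highest, for *Phlda2*, was 1.78-fold. With the brightest probe set taken for each gene, the median of the 9 genes was -0.02, and that of 18193 genes was also -0.02. The members' median was 0.0037 with array weights, 0.0064 with cyclic loess and 0.0034 with a second quantile normalization.

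**Figure D1:**
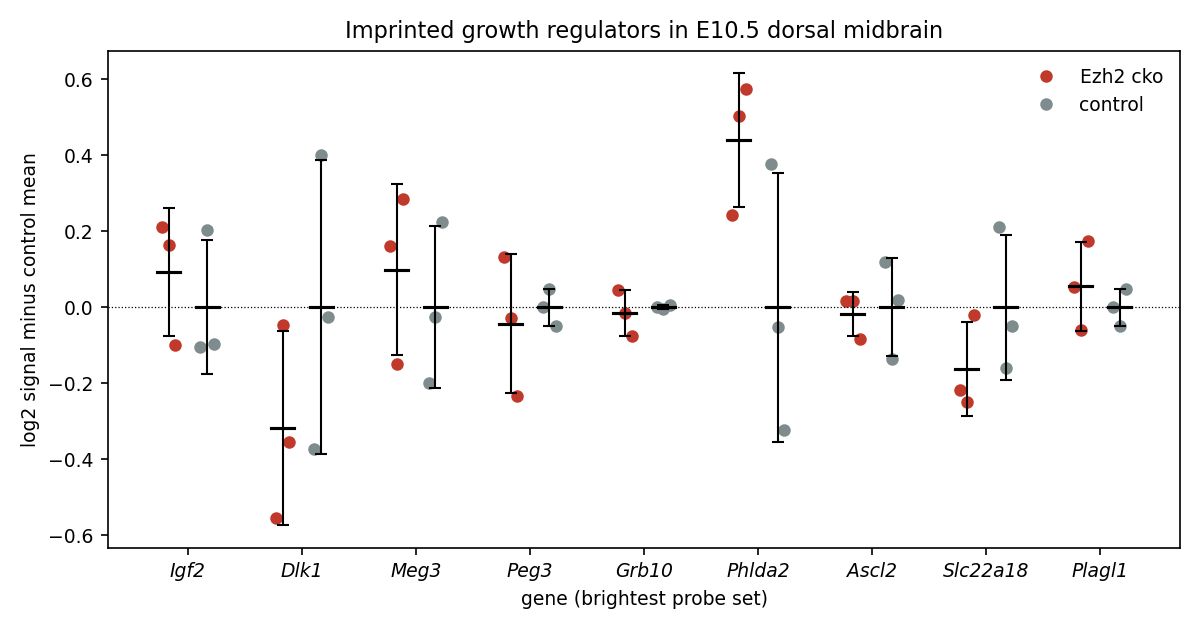
Log2 signal of the brightest probe set of each of the 9 genes, minus the mean of the 3 control arrays (y axis), with 1 point per array, bars at the group mean and whiskers of 1 SD (n = 3 each). In all 9 genes the points of the *Ezh2* cko and control arrays overlap, and *Phlda2* has the largest difference between means, at 0.44.

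**Figure D2:**
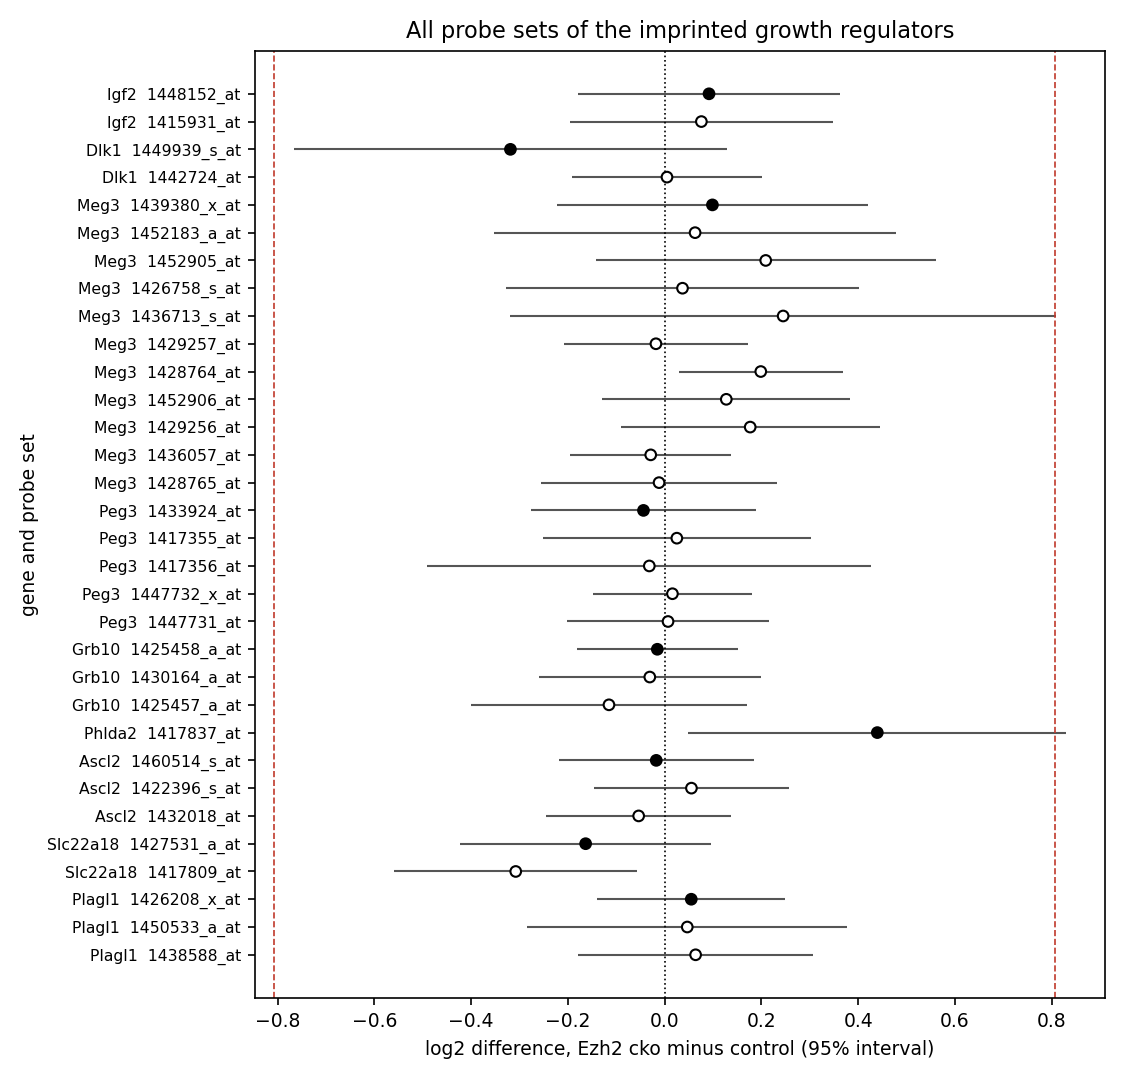
Log2 difference, *Ezh2* cko minus control, of all 32 probe sets with its 95% interval (x axis), from limma. Filled points are the brightest probe set of each gene, dashed lines mark the study's fold-change threshold in either direction, and 29 of the 32 intervals include 0.

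*Igf2*, on chromosome 7 and expressed from the paternal allele in most embryonic tissues, encodes the main growth factor among these genes. Its brighter probe set read 12.08, 12.03 and 11.77 in *Ezh2* cko arrays, against 11.76, 12.07 and 11.77 in control arrays. The groups overlapped, with *Ezh2* cko 3 among the low control values and control 2 among the high *Ezh2* cko values. The difference was 0.09 (SE 0.12, 95% interval -0.18 to 0.36). The dim probe set read 4.38, 4.66 and 4.72 in *Ezh2* cko arrays and 4.48, 4.36 and 4.69 in control arrays, a difference of 0.08 with overlapping groups.

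*Dlk1* and *Meg3* lie side by side on chromosome 12 and share a control region. *Dlk1*, paternally expressed, encodes a membrane protein with EGF repeats related to the Notch ligands. Its brighter probe set read 6.60, 7.11 and 6.80 in *Ezh2* cko arrays, against 6.78, 7.56 and 7.13 in control arrays. Only *Ezh2* cko 1 lay below all control arrays, and control 1 lay among the *Ezh2* cko values. The difference was -0.32 (SE 0.20, 95% interval -0.77 to 0.13, limma adjusted p = 0.779). Without control 2, the array with the highest *Dlk1* signal, the difference was -0.12. The second *Dlk1* probe set differed by 0.00 with an interval from -0.19 to 0.20, so the brighter set's direction was not shared.

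*Meg3*, a long non-coding RNA made from the maternal allele, had 11 probe sets, 8 with a difference above 0 and 3 below, 1 of which turned positive with cyclic loess or a second quantile normalization. The brightest read 10.99, 10.68 and 11.11 in *Ezh2* cko arrays, against 10.63, 10.80 and 11.05 in control arrays. Here the groups were interleaved, and the difference of 0.10 (SE 0.14, 95% interval -0.22 to 0.42) was smaller than the spread within either group. The next 3 by brightness differed by 0.06, 0.21 and 0.04. *Meg3* probe set 1436713_s_at had the widest error of all 32, with a difference of 0.24 (SE 0.25), and read 7.36, 7.57 and 7.92 in *Ezh2* cko arrays and 6.98, 7.17 and 7.97 in control arrays. Every *Ezh2* cko value of that set lay inside the control range.

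A single member probe set, *Meg3* 1428764_at, separated the groups. It read 6.18, 6.11 and 6.17 in *Ezh2* cko arrays, against 5.99, 5.89 and 6.00 in control arrays. All 3 *Ezh2* cko arrays lay above all control arrays, yet the step was small, at 0.20 (SE 0.07, 95% interval 0.03 to 0.37, limma unadjusted p = 0.0264, adjusted p = 0.576). Groups without overlap made up 13% of all probe sets, beside 1 of 32, or 3.12%, here. The brighter *Meg3* probe sets did not separate the groups.

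The 4 *Meg3* probe sets with a mean signal over 8 ordered the arrays alike, a pattern described after the values were seen. In 4 of the 4, *Ezh2* cko 3 was the highest of the 6 arrays, *Ezh2* cko 2 the lowest of its group and control 1 the lowest control. Among all 12034 probe sets of that brightness, *Ezh2* cko 3 was highest in 2094, *Ezh2* cko 2 was lowest of its group in 3123 and control 1 was the lowest control in 4727. These probe sets target 1 transcript and are not independent. *Rian* and *Mirg*, non-coding RNAs made from the same chromosome strand as *Meg3*, also spread widely within groups. The brightest *Rian* set read 8.65, 8.31 and 9.52 in *Ezh2* cko arrays, against 8.46, 9.64 and 9.51 in control arrays, a difference of -0.38 (SE 0.36, 95% interval -1.21 to 0.45) that was -0.75 without control 1 and -0.12 without *Ezh2* cko 2. The brighter of 2 *Mirg* sets read 7.08, 6.89 and 7.21 in *Ezh2* cko arrays, against 6.68, 7.48 and 7.33 in control arrays. In these 2 sets, as in the 4 of *Meg3*, control 1 was the lowest control and *Ezh2* cko 2 the lowest of its group. The dimmer *Mirg* set had another order, with 5.48, 5.78 and 5.88 in *Ezh2* cko arrays, against 5.66, 5.35 and 5.50 in control arrays, and a difference of 0.21 where the brighter set had -0.10. The dimmer *Rian* sets did not all share the order either.

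**Figure D3:**
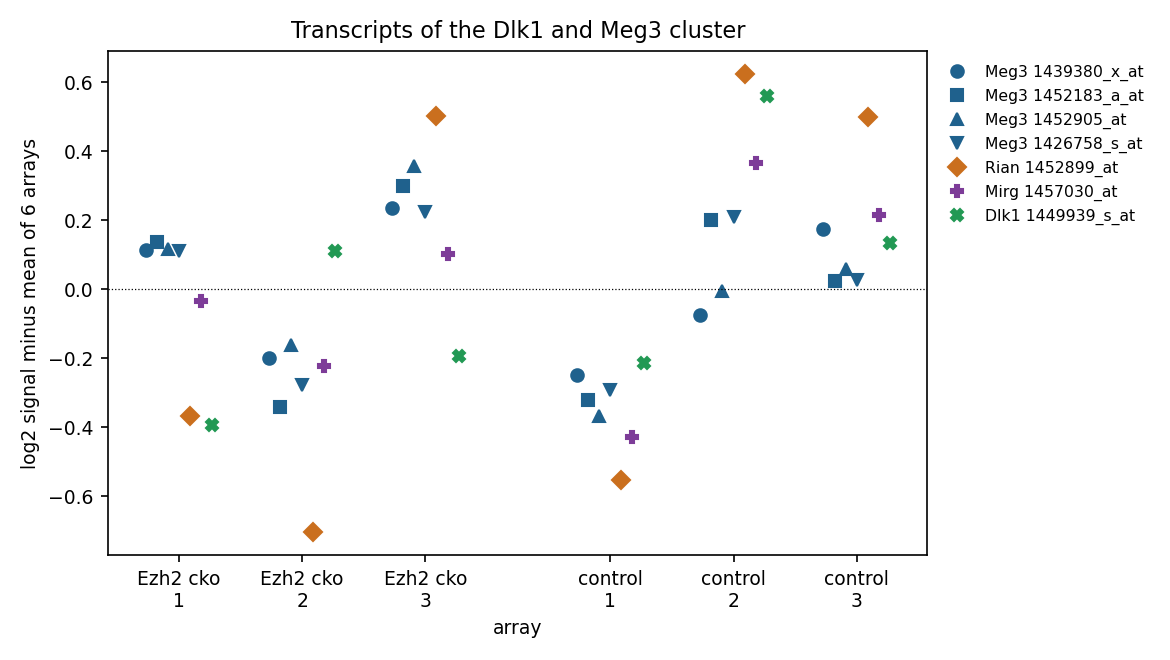
Log2 signal minus the mean of the 6 arrays (y axis) for the 4 brightest *Meg3* probe sets and the brightest sets of *Rian*, *Mirg* and *Dlk1*, by array (x axis). The *Meg3* points lie low in *Ezh2* cko 2 and control 1 and high in *Ezh2* cko 3, so arrays of 1 group differ from each other by more than the groups do.

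Markers of other cells also differed between these arrays, and their lists did not all lean the same way. Control 1 had the lowest mean over the 14 neuron markers, with *Ezh2* cko arrays at 10.23 to 10.68 and control arrays at 9.86 to 10.28. Of the 14, 13 differed by more than 0, with a median of 0.36. Control 1 was lowest over the 15 mesenchyme markers as well, with 8.51 to 8.72 in *Ezh2* cko arrays and 8.17 to 8.57 in control arrays. For the 8 macrophage markers the ranges were 7.03 to 7.24 in *Ezh2* cko arrays and 6.59 to 7.12 in control arrays. Within the *Ezh2* cko group the neuron and mesenchyme means did not follow the order of the bright *Meg3* sets. Their lowest array was *Ezh2* cko 1, at 10.23 and 8.51, with *Ezh2* cko 2 at 10.46 and 8.64. The macrophage mean was lowest in *Ezh2* cko 2 and in control 1. The mesenchyme median was 0.24, with 12 of 15 above 0. None of these 3 lists had a gene past limma's adjusted p. At an unadjusted p under 0.05 there were 7 neuron, 7 mesenchyme and 1 macrophage marker, beside 8.87% of all genes. The 10 epithelium markers ran from 5.95 to 6.01 in *Ezh2* cko arrays and from 5.65 to 5.81 in control arrays, without overlap. Of the 10, 7 differed by more than 0 and 3 by less, with a median of only 0.06. Past limma's adjusted p were 2 of the 10, both higher, beside 0.297% of all genes called higher. *Epcam*, which encodes an adhesion molecule, rose by 1.33 in its brighter set (SE 0.09, limma adjusted p = 0.00368). Its second set differed by 0.18 (limma adjusted p = 0.695). *Epcam* stands in the study's own list of differing genes from these samples, so its call is not independent of that list. *Cdh1*, which encodes E-cadherin, rose by 0.77 (SE 0.09, limma adjusted p = 0.0166). Both were named after their values were seen. The 5 neural crest markers measured ran from 7.095 to 7.255 in *Ezh2* cko arrays and from 6.997 to 7.070 in control arrays. The ranges again did not overlap, but the median was only 0.06, with 4 of 5 above 0 and none past the test. The 8 midbrain markers, with none past the test, ran from 9.51 to 9.75 in *Ezh2* cko arrays and from 9.24 to 9.34 in control arrays. Their median was 0.22, with 7 of 8 above 0. At an unadjusted p under 0.05 there were 3 epithelium, 1 neural crest and 3 midbrain markers, beside 8.87% of all genes. Ranges overlapped for the 8 erythroid markers measured, with 10.23 to 10.38 in *Ezh2* cko arrays and 10.19 to 10.51 in control arrays. They also overlapped for 8 endothelium markers (7.65 to 7.93 and 7.69 to 7.84) and 8 neural progenitor markers (11.36 to 11.59 and 11.39 to 11.49). The medians of these lists were -0.05, 0.06 and 0.00, with none past the test. The part of these marker lists in the values of *Meg3*, *Phlda2* and the other members was not tested.

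*Peg3*, on chromosome 7 and paternally expressed, encodes a large zinc finger protein. Its brightest probe set read 12.34, 12.18 and 11.98 in *Ezh2* cko arrays, against 12.21, 12.26 and 12.16 in control arrays. The *Ezh2* cko arrays lay on both sides of the narrow control range, and the difference was -0.04 (SE 0.10, 95% interval -0.28 to 0.19). Across all 5 *Peg3* probe sets the differences ran from -0.04 to 0.03. *Plagl1*, on chromosome 10 and also paternally expressed, encodes a zinc finger transcription factor that can halt the cell cycle. Its brightest set read 12.99, 12.88 and 13.11 in *Ezh2* cko arrays, against 12.94, 12.89 and 12.99 in control arrays, a difference of 0.06 (SE 0.08, 95% interval -0.14 to 0.25). The other 2 sets of *Plagl1* differed by 0.05 and 0.06, again with overlap.

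*Grb10*, on chromosome 11, encodes an adaptor that dampens signalling from the insulin and IGF1 receptors. It is made from the maternal allele in most tissues and from the paternal allele in neurons. The 3 *Ezh2* cko arrays read 13.02, 12.96 and 12.90, against 12.97, 12.97 and 12.98 in control arrays. This was the tightest control group among the brightest sets, and *Ezh2* cko values lay on both sides of it. The difference of -0.02, which was 0.0057 with cyclic loess, had an interval from -0.18 to 0.15, among the narrowest of the members. The 2 dimmer *Grb10* sets differed by -0.03 and -0.12, both less than their standard errors.

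*Phlda2*, *Slc22a18* and *Ascl2* belong to 1 maternally expressed cluster on chromosome 7. *Phlda2* encodes a small pleckstrin homology domain protein that restrains growth of the placenta, *Slc22a18* a membrane transporter, and *Ascl2* a transcription factor that the trophoblast of the placenta requires. The stretches of 250 bases that end at the RefSeq starts of *Phlda2* and *Slc22a18* are shown because these genes lie next to each other and had the largest positive and the second largest negative difference among member probe sets. They are given on the strand of each gene, build GRCm38.p6, with every CG, the dinucleotide that carries most DNA methylation in mammals, in capitals.
*Phlda2*, chr7:143502525-143502774, minus strand: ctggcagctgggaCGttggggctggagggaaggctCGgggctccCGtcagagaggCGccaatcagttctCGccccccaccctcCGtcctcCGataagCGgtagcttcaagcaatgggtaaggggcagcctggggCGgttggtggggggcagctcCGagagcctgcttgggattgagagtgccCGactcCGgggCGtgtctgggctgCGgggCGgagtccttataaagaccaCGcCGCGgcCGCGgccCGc
*Slc22a18*, chr7:143473539-143473788, plus strand: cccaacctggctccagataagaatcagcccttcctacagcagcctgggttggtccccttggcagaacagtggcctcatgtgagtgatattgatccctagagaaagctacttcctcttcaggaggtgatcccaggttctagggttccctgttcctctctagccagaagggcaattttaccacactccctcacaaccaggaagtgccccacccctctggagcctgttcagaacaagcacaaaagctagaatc
The *Phlda2* stretch holds 21 CG and the *Slc22a18* stretch 0. As many as 21 were found in 16.3% of 32851 mouse promoter windows of this length, whose median was 6. The 14 windows of the 9 genes held 0 to 40 CG, the most at 1 of the *Grb10* starts, and 11 of them were at or above that median. Neither methylation nor histone marks were measured on these arrays.

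The only probe set of *Phlda2* read 5.43, 5.69 and 5.76 in *Ezh2* cko arrays, against 5.56, 5.13 and 4.86 in control arrays. *Ezh2* cko 2 and 3 lay above all controls, whereas control 1 lay above *Ezh2* cko 1, so the groups overlapped. The means were 5.62 ± 0.18 in *Ezh2* cko and 5.19 ± 0.35 in control arrays (SD, n = 3 each), a 1.36-fold difference. On the log2 scale it was 0.44 (SE 0.17, 95% interval 0.05 to 0.83, limma unadjusted p = 0.0315, adjusted p = 0.601). Without control 1 the difference was 0.63 with an adjusted p of 0.299, and without control 3 it was 0.28 with an adjusted p of 0.600, a range that shows how far single control arrays set its size.

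*Slc22a18* gave differences of the opposite sign. Its dimmer probe set read 4.56, 4.30 and 4.31 in *Ezh2* cko arrays, against 4.82, 4.76 and 4.52 in control arrays. *Ezh2* cko 2 and 3 lay below all controls and *Ezh2* cko 1 lay just above control 3. The difference was -0.31 (SE 0.11, 95% interval -0.56 to -0.06, limma unadjusted p = 0.0218, adjusted p = 0.546). The brighter set read 5.74, 5.71 and 5.94 in *Ezh2* cko arrays, against 6.17, 5.80 and 5.91 in control arrays, with a difference of -0.16 (SE 0.11, 95% interval -0.42 to 0.10). In that set the highest array was control 1, and without it the difference was -0.06. *Ascl2* lay below the array median of all probe sets on every array, and its 3 probe sets differed by -0.02, 0.06 and -0.05. Its brightest set read 4.74, 4.74 and 4.64 in *Ezh2* cko arrays, against 4.84, 4.59 and 4.74 in control arrays, with all *Ezh2* cko arrays inside the control range.

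Of 18184 other genes, those whose signals across the 6 arrays, each centred on its own mean, lay closest to *Phlda2* were *Barx1*, *Plekhg3*, *Hapln4*, *Wnt4* and *B4galnt1*. Their root mean square distances from it were 0.108 to 0.148 log2 units, beside a spread of 0.317 for *Phlda2* itself. *Barx1*, which encodes a homeobox transcription factor, read 6.02, 6.06 and 6.21 in *Ezh2* cko arrays, against 5.92, 5.79 and 5.35 in control arrays. *Wnt4*, a Wnt ligand, differed by 0.55 with a limma adjusted p of 0.214. None of the 5 passed the test.

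Other imprinted genes of the same clusters were counted in the same way. Of 20 listed, 17 had a probe set of their own, 0 passed limma in either direction at the adjusted p, 2 had an unadjusted p under 0.05, beside 8.87% of all genes, and the median difference was 0.01. Among all genes, 54 of 18193 were called higher, or 0.297%, and 1 lower, or 0.0055%. At such shares 0 is the likely count for 17 genes, so it shows no likeness to the members. *Cdkn1c*, the neighbour of *Phlda2* and *Slc22a18* that encodes an inhibitor of cyclin-dependent kinases, read 10.79, 11.07 and 11.09 in *Ezh2* cko arrays, against 10.51, 10.74 and 10.75 in control arrays. All *Ezh2* cko values were above all control values, with a difference of 0.32 (SE 0.11) and a limma adjusted p of 0.529. *Cobl*, an actin regulator next to *Grb10*, differed by 0.21 in its brighter set and -0.14 in its dimmer one, and *Osbpl5*, which encodes a lipid-binding protein, by 0.18. The brightest *Kcnq1ot1* set, for the non-coding RNA that silences the cluster of *Phlda2* on the paternal chromosome, differed by -0.03 (SE 0.15).

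In imprinted clusters elsewhere, 1 of 32 measured genes rose, *Sfmbt2*, and 0 fell, beside 0.297% and 0.0055% of all genes. At an unadjusted p under 0.05 there were 5, beside 8.87% of all genes, and the median was 0.01. *Sfmbt2* encodes a Polycomb group protein needed in extraembryonic tissue, where it is expressed from the paternal allele. Its brighter probe set read 7.46, 7.37 and 7.39 in *Ezh2* cko arrays, against 6.29, 6.11 and 6.33 in control arrays. All 3 *Ezh2* cko arrays stood about 1 log2 unit over every control array. *Sfmbt2* was 2.24-fold higher in *Ezh2* cko midbrain, with a log2 difference of 1.16 (SE 0.09, 95% interval 0.97 to 1.36, limma adjusted p = 0.00418). The call held without any 1 array, with adjusted p from 0.0214 to 0.0294, and was lost in the unpaired test of the methods, with an adjusted p of 0.267. A second, dim *Sfmbt2* set differed by 0.02. *Sfmbt2* and *Igfbp5*, a gene of the IGF pathway, stand in the study's own list of differing genes from these samples, so neither call is independent of it. The 250 bases before 1 of the RefSeq starts of *Sfmbt2* are shown for comparison with *Phlda2*, with CG in capitals as before.
*Sfmbt2*, chr2:10370201-10370450, plus strand: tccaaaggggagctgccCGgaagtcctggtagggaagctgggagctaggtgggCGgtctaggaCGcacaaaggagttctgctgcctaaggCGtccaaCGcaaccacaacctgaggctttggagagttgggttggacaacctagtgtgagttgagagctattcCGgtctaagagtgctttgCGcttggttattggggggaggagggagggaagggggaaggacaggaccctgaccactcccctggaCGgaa
This stretch holds 8 CG, and the one before another start of the gene holds 15.

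*Airn*, *Igf2r* and *Ampd3* followed *Sfmbt2* by size of difference in that list without passing. *Igf2r*, made from the maternal allele in mice, encodes the receptor that takes up and degrades Igf2, and *Airn* is the paternal non-coding RNA that silences it. The brightest *Airn* set read 6.21, 5.94 and 6.29 in *Ezh2* cko arrays, against 5.69, 5.93 and 5.57 in control arrays, a difference of 0.41 (SE 0.12) with a limma adjusted p of 0.418. The next set by brightness differed by 0.29 (SE 0.07), also without overlap. Dimmer *Airn* sets differed by 0.05, 0.19 and -0.20, the last with all *Ezh2* cko values below all control values, so the sets disagreed in sign. The brighter *Igf2r* set read 9.54, 9.37 and 8.78 in *Ezh2* cko arrays, against 8.78, 8.77 and 9.13 in control arrays. Its difference of 0.34 (SE 0.19, 95% interval -0.09 to 0.77) rested on *Ezh2* cko 1 and 2, while *Ezh2* cko 3 was at the control level. The other *Igf2r* set read 9.36, 8.76 and 8.85 in *Ezh2* cko arrays, against 8.56, 8.66 and 8.65 in control arrays. There all *Ezh2* cko values were above all control values, with a difference of 0.37 (SE 0.15, limma adjusted p = 0.618). *Ampd3*, which encodes an AMP deaminase, differed by 0.28.

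Genes through which Igf2 and Grb10 act were read beside them. Of 26 genes of IGF and insulin signalling, 25 were measured, 1 rose, *Igfbp5*, and 0 fell, beside 0.297% and 0.0055% of all genes. At an unadjusted p under 0.05 limma counted 3 of the 25, beside 8.87% of all genes. The median difference was 0.04, with 15 above 0 and 10 below. *Igfbp5*, which encodes a secreted protein that binds IGFs, read 10.70, 10.27 and 10.38 in *Ezh2* cko arrays, against 9.47, 9.71 and 9.57 in control arrays. The groups were well apart, with a 1.83-fold difference and a log2 difference of 0.87 (SE 0.12, 95% interval 0.59 to 1.15, limma adjusted p = 0.0428). The call was lost without any 1 of the 6 arrays, with adjusted p from 0.0652 to 0.168, and under 4 further alternatives. A second *Igfbp5* probe set differed by -0.09, the opposite sign.

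Other IGF-binding and processing genes did not pass. *Pappa2*, whose product cleaves IGF-binding proteins, differed by 0.46 (SE 0.22), or by 0.20 without control 1, and *Igfbp3* by 0.32 (SE 0.12) and 0.29 in its 2 probe sets. All 10 genes listed for the maintenance of imprints were measured, and 0 passed limma in either direction. At an unadjusted p under 0.05 the count was 0, beside 8.87% of all genes, and the median was -0.05. *Dnmt1*, the maintenance DNA methyltransferase, differed by -0.11 in its brightest set, and *Zfp57*, a zinc finger protein that protects methylated imprints, by 0.14. For *Dnmt3a*, a de novo DNA methyltransferase, the brightest set differed by -0.29 (SE 0.22) and another by 0.32 (SE 0.12), so its probe sets disagreed in sign. The brighter set of *Dnmt3b*, the other de novo enzyme, read 9.85, 9.82 and 9.74 in *Ezh2* cko arrays, against 9.99, 9.95 and 9.91 in control arrays. All *Ezh2* cko values were below all control values, with a difference of -0.14 (SE 0.07) and a limma adjusted p of 0.726, while the dimmer set differed by -0.03.

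**Figure D4:**
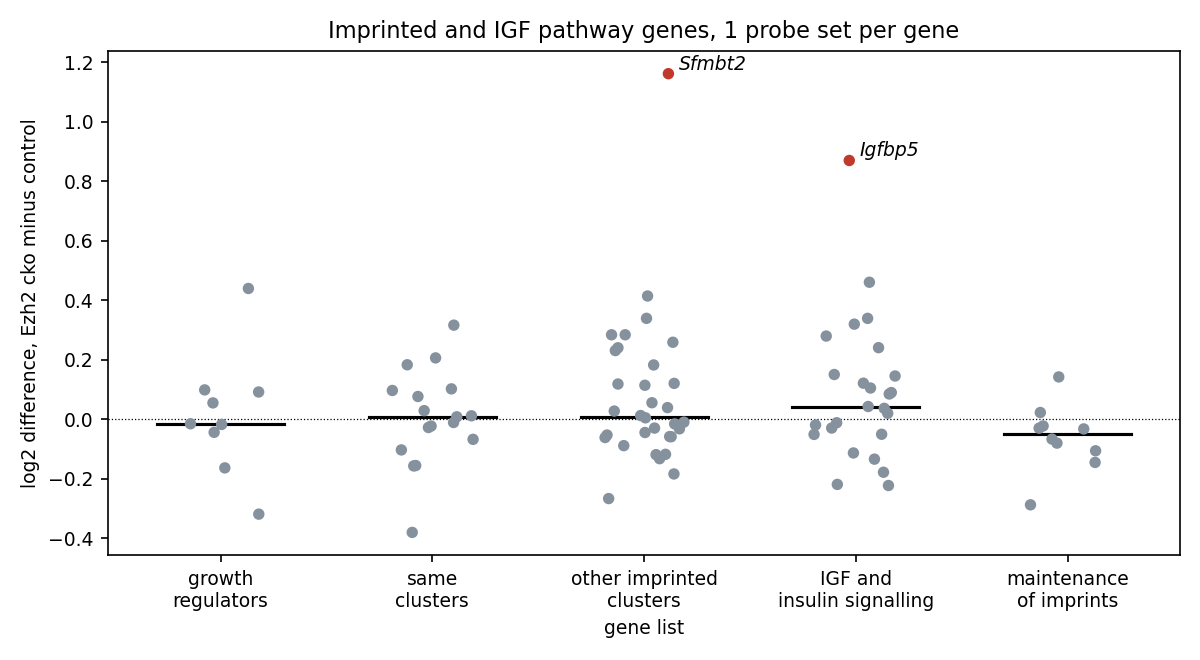
Log2 difference, *Ezh2* cko minus control (y axis), of the brightest probe set of each measured gene in 5 lists (x axis), with 1 point per gene and a bar at the median of each list. Red points, *Sfmbt2* at 1.16 and *Igfbp5* at 0.87, are the 2 genes past an adjusted p of 0.05, and the list medians lie between -0.05 and 0.04.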

How the data were processed

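Total RNA of 6 E10.5 dorsal midbrain samples, 3 *Ezh2* cko and 3 control, was hybridized to 1 array each. The values the authors deposited are log2 signals, 1 per probe set, made with RMA, whose version is not given in the sources used here. RMA's quantile step leaves the arrays with nearly equal medians (5.68 to 5.72). Array signals carry no depth, and the number of arrays limits the precision.

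The 64 manufacturer's controls were set aside, and lmFit and eBayes of limma 3.58.1 (R 4.3.3) were run on the remaining 45037 probe sets, *Ezh2* cko minus control. Benjamini-Hochberg adjustment covered every probe set in the fit, with a threshold of 0.05. They measure only the spread between these samples. Symbols came from the platform annotation, in which 34945 probe sets have 1 symbol, 932 several and 9160 none, and were updated through Entrez identifiers for 34741. The brightest set over all arrays stands for a gene where 1 value per gene is used. The methods' t-test is an unpaired two-sided test. The study does not state that it was the test of the arrays, and its adjusted p comes from the adjustment used here.

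All members are named. From each list other than the cell type markers, called genes and up to 4 with the largest absolute difference are named, with the 5 genes most like the member with the largest difference. *Kcnq1ot1*, *Mirg*, *En1*, *Epcam*, *Cdh1* and the ordering of the *Meg3* sets were picked outside that rule or after values were seen. Members and lists were chosen with earlier results of these data known. Promoter sequences are RefSeq's, build GRCm38.p6, searched for CG, which reads the same on both strands.

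Each result was recomputed with cyclic loess, with median centring or with a second quantile normalization; with array weights; with a robust and trended prior; without dim sets; without sets ending _x_at or _s_at; with a replicate block; without each array; by the methods' t-test and thresholds; and with probe sets averaged by gene. The fit was tested on simulated data.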

Additional observations from a re-analysis of the deposited data

How the results depend on the processing

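No probe set of the imprinted growth regulators passed limma or the methods' t-test under any of the 15 alternatives or at the methods' thresholds, and the lowest adjusted p was 0.299, for *Phlda2* without control 1. Over all probe sets the count of 85 was 21 (without control 2) to 46 (without *Ezh2* cko 2) with 1 array fewer, 0 with the t-test of the methods, and 111 with the trended and robust prior. The median difference of the members stayed between -0.03 and 0.02 and took either sign. The *Igfbp5* call was also lost with array weights (adjusted p = 0.0616), the filter on dim probe sets (0.0542), the replicate block (0.108) and the t-test (0.534). The labels do not say whether the same replicate numbers pair samples. Arrays of the same number had correlations of their deviations of 0.0649, -0.203 and 0.0633, and those of different numbers ran from -0.16 to 0.123. With 3 arrays per group such values cannot decide whether samples were paired. With the replicate block 59 probe sets passed, 0 of them members.

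Of 460 differences of member probe sets under alternatives, 414 kept their sign and 46 reversed it, in 21 sets, each with a difference no larger than 0.12 in size. The cause was not tested. The 10 that reversed with all arrays were, with array weights, *Meg3* 1452183_a_at (-0.0439) and 1426758_s_at (-0.0512), *Peg3* 1417356_at (0.0384) and *Ascl2* 1460514_s_at (0.0037); with cyclic loess, *Meg3* 1428765_at (0.0103), *Grb10* 1425458_a_at (0.0057) and *Ascl2* 1460514_s_at (0.0064); and with quantile normalization again, *Meg3* 1428765_at (0.0030), *Ascl2* 1460514_s_at (0.0034) and *Plagl1* 1450533_a_at (-0.0035). The scalings moved the median of all probe sets by at most 0.03. The other 36 reversed with 1 array left out, with these lowest and highest log2 differences: for *Igf2*, -0.000469 to 0.177 (1415931_at); for *Dlk1*, -0.048 to 0.0424 (1442724_at); for *Meg3*, -0.000806 to 0.223 (1439380_x_at), -0.0814 to 0.25 (1452183_a_at), -0.0998 to 0.185 (1426758_s_at), -0.0521 to 0.0316 (1429257_at), -0.101 to 0.0375 (1428765_at); for *Peg3*, -0.131 to 0.0513 (1433924_at), -0.0868 to 0.159 (1417355_at), -0.209 to 0.174 (1417356_at), -0.00138 to 0.048 (1447732_x_at), -0.0569 to 0.0896 (1447731_at); for *Grb10*, -0.0456 to 0.0153 (1425458_a_at), -0.096 to 0.0505 (1430164_a_at), -0.203 to 0.0309 (1425457_a_at); for *Ascl2*, -0.0855 to 0.042 (1460514_s_at), -0.0173 to 0.0923 (1422396_s_at), -0.117 to 0.00133 (1432018_at); for *Plagl1*, -0.00383 to 0.113 (1426208_x_at), -0.127 to 0.159 (1450533_a_at), -0.0354 to 0.159 (1438588_at). Among the other named genes the brightest *Dnmt3a* set also reversed, -0.452 to 0.0111 (1423066_at). With 1 array left out, *Osbpl5* ran from 0.10 to 0.30, *Igf2r* from 0.18 to 0.56, *Ampd3* from 0.16 to 0.39 and *Pappa2* from 0.20 to 0.61, none of them past the test. The probe sets of *Phlda2*, *Slc22a18*, the brighter set of *Dlk1* and *Meg3* 1428764_at did not reverse under any alternative run.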
